A study of Rattus norvegicus with 9 samples.

Results

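Glypicans, syndecans, and the extracellular heparan sulfatases were examined in adipose-derived mesenchymal stem cells (ASCs) of 3 fat depots. The 10 genes were chosen as members of these families, by symbol: Gpc1, Gpc3, Gpc4, and Gpc6 (glypicans), Sdc1 to Sdc4 (syndecans), and Sulf1 and Sulf2 (sulfatases). Of these, 9 matched a row among the 35362 genes of the table and all 9 had enough counts to be tested, whereas Gpc6 was not analysed here. ASCs were grown from the subcutaneous fat of the groin (SASCs), from perirenal fat (PASCs), and from epididymal fat (EASCs) of male Sprague Dawley rats, and RNA was taken at passage 3. The rats were purchased at 6 weeks of age and starved before the cells were isolated, with no experimental treatment stated. Each group has 3 samples, 9 in all, while the methods describe 6 rats and 6 replicate wells per group for RNA. The cells were obtained by collagenase digestion and adherence to plastic, with no sort by surface markers before sequencing stated in the labels. No label tells whether different animals or only different wells stand behind the 3 samples of one depot, so p-values measure only the spread between these samples, which may be technical.

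Glypicans are held at the outer side of the cell membrane by a lipid anchor, while syndecans cross the membrane and reach the cytoskeleton with a short tail. Both carry heparan sulfate, a sulfated sugar chain that binds growth factors such as FGFs, Wnts, and hedgehogs and presents them to their receptors. Sulf1 and Sulf2 act outside the cell, where they take 6-O-sulfate groups off finished chains and so change which ligands are bound. Mesenchymal cells of fat are known to express members of all these families.

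Between 17591916 and 30299032 reads were counted per sample. A gene at 3 counts has 0.104 to 0.159 CPM (the count scaled to library size with edgeR's TMM factors), a limit that covers counting error only, and the 9 members had at least 20 counts in every sample. The share of ribosomal RNA genes was 10.4% to 15.5% for SASCs, 22.4% to 32.9% for PASCs, and 15.9% to 40.3% for EASCs. All 9 markers fixed for mesenchymal stem cells had a mean above 1 CPM in every group, and their sum was 15551 to 16372 CPM for SASCs, 22639 to 27574 for PASCs, and 26197 to 28942 for EASCs. Most of that sum came from the collagen gene Col1a1 (means of 10697.5, 19134, and 20332 CPM in the same order). Among the 9 markers Pdgfra, a receptor of fibroblastic cells, was lower outside SASCs (1543, 278, and 235 CPM in the same order), whereas Eng (59.97, 89.8, and 204 CPM) and Itgb1 (1046, 1814, and 2951 CPM) were upregulated DEGs in EASCs. Pdgfrb was also lower outside SASCs (442, 317, and 336 CPM), and Thy1 was lower in EASCs but higher in PASCs (545, 777, and 405 CPM). The summed level of 8 mesothelial markers was 18.6 to 20.2 CPM for SASCs, 95.1 to 102 for PASCs, and 129.9 to 142 for EASCs, and that of 5 markers of smooth muscle and pericytes was 50.1 to 53.9, 239 to 249, and 599 to 633 CPM. Markers of adipocytes (5 genes) summed to 69.6 to 73.2, 14.7 to 15.2, and 6.20 to 6.58 CPM, those of endothelium (6) to 44.3 to 46.0, 11.7 to 14.6, and 30.5 to 33.1 CPM, and those of macrophages and leukocytes (6) to 62.7 to 69.2, 63.6 to 65.2, and 113 to 116 CPM, in the same order of groups. Single markers of the last 2 lists went opposite ways. Tek was higher in PASCs and EASCs (8.30 and 8.08 CPM) than in SASCs (2.55 CPM). Kdr was lower in both, and Pecam1, Cdh5, Vwf, and Emcn were lower in PASCs. In PASCs against SASCs, Csf1r was an upregulated DEG (12.6 against 3.54 CPM) and Cd163 a downregulated one (7.52 against 27.8 CPM). Among defining markers, Cd3e was at 0 in all samples, Krt18 in SASCs, and Krt19 in PASCs. Krt19 was also too low to be tested in the other groups (means of 0.151 CPM in SASCs and 0.0270 CPM in EASCs). Most of the mesothelial sum in EASCs came from Wt1, Msln, and Lrrn4 (means of 53.7, 38.5, and 36.0 CPM). The part of these cell types in the results was not tested, and in bulk RNA fewer cells of a type and less RNA per cell cannot be told apart.

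Levels of different genes are given as CPM per kilobase of the listed gene length. In SASCs the order from high to low was Sulf1 (100.3 CPM per kb), Sdc4 (73.2), Gpc1 (50.7), Sdc2 (36.2), Gpc4 (21.4), Gpc3 (21.3), Sdc1 (18.3), Sulf2 (12.2), and Sdc3 (3.75), and among neighbours in this order only Gpc4 and Gpc3 overlapped between samples. In PASCs Gpc1 came first (134 CPM per kb), followed by Sdc1 (63.6), Sdc4 (50.2), Sdc2 (38.4), Sulf1 (34.3), Gpc4 (21.6), Sdc3 (18.0), Sulf2 (5.95), and Gpc3 (0.572), without overlap between neighbours. In EASCs Sdc1 was the highest (97.2 CPM per kb). Sulf1 (67.5), Gpc1 (65.6), Sdc4 (61.0), and Sdc2 (54.9) came next and overlapped from each to the following one, before Gpc4 (43.6), Sdc3 (20.4), Sulf2 (6.32), and Gpc3 (0.863). Thus the first place was taken by a sulfatase in SASCs, a glypican in PASCs, and a syndecan in EASCs. Gpc1 in PASCs was above 97.3% of the genes tested, Sulf1 in SASCs above 96.9%, and Sdc1 in EASCs above 96.3%.

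**Figure D1:**
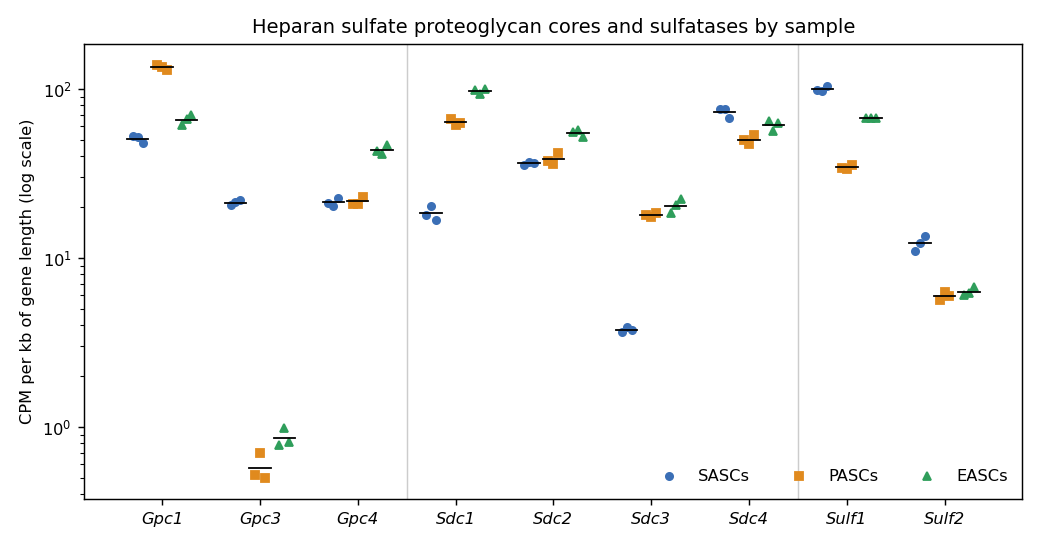
Level of each member in every sample, as CPM per kilobase of gene length on a log axis, with circles for SASCs, squares for PASCs, triangles for EASCs, and a black bar for the mean of 3 samples. Gpc3 falls from a mean of 21.3 in SASCs to below 1 in both other groups, while Sdc1 and Sdc3 lie higher in PASCs and EASCs than in SASCs.

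DEGs were called by edgeR's quasi-likelihood test, fitted on all 14770 genes tested, where the fold change exceeded 2 and the adjusted p-value was below 0.05. In EASCs against SASCs, 3 of the 9 members were upregulated DEGs (Gpc4, Sdc1, and Sdc3) and 1 was downregulated (Gpc3), where 13.6% of all genes tested were upregulated and 14.2% downregulated DEGs. In PASCs against SASCs, Gpc1, Sdc1, and Sdc3 were upregulated and Gpc3, Sulf1, and Sulf2 downregulated DEGs, 3 and 3 of 9, with 12.0% and 14.9% of all genes. In EASCs against PASCs, Gpc4 was the 1 upregulated and Gpc1 the 1 downregulated DEG, with 5.19% and 2.20% of all genes. The median log2 fold change of the members was 0.37, 0.01, and 0.52 in the 3 comparisons, and that of all genes 0.01, -0.01, and -0.01. The comparisons with SASCs share these control samples.

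**Figure D2:**
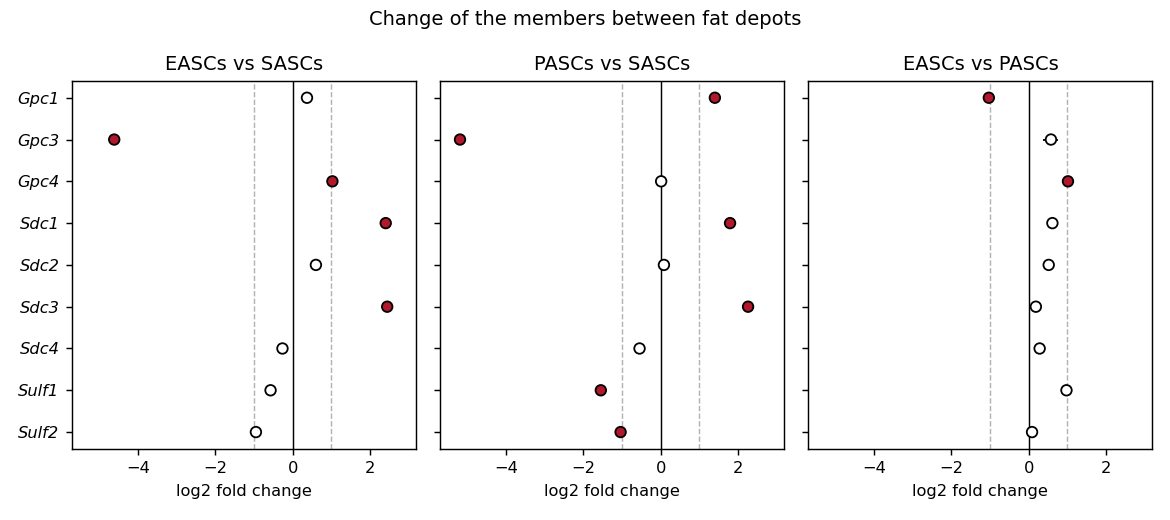
Log2 fold change of the 9 members in the 3 comparisons, with standard errors as horizontal bars that are mostly shorter than the points, dashed lines at a fold change of 2, and filled points for DEGs. Gpc3 lies far to the left in both comparisons with SASCs, and Gpc1 and Gpc4 lie on opposite sides in EASCs against PASCs.

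Gpc3 showed the largest change of the members. The glypican it encodes is known as a regulator of growth in the embryo that binds Wnts and hedgehogs. Gpc3 (gene 25236) spans bases 139579268 to 139947093 of chromosome X, minus strand, in the coordinates of the table, whose build is rn6 by the methods while the processing notes of the submitters list rn5. SASCs had 1263, 1070, and 960 counts of it, PASCs 29, 40, and 20, and EASCs 40, 52, and 39. This came to 43.9, 45.4, and 46.9 CPM for SASCs, 1.11, 1.495, and 1.06 CPM for PASCs, and 1.67, 2.11, and 1.74 CPM for EASCs. All SASCs were thus far above the other samples, and the groups did not overlap. The log2 fold change against SASCs was -5.19 in PASCs (standard error 0.131, adjusted p = 8.85e-23 from edgeR) and -4.62 in EASCs (standard error 0.122, adjusted p = 2.51e-22). EASCs were 1.49-fold above PASCs (adjusted p = 0.0252), under the fold threshold, and the adjusted p was 0.152 in the fit of the 2 groups alone, 0.2005 without TMM, 0.105 without PASCs replicate 1, 0.0785 without PASCs replicate 3, and 0.135 without EASCs replicate 2, all from edgeR.

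Gpc4, a glypican that is released in soluble form by adipose tissue, is the next member along the chromosome, on the minus strand of X from 139354325 to 139464865 (gene 317322). A gap of 114.4 kb with 3 other listed genes separates it from Gpc3. Gpc4 was at 57.9, 55.4, and 61.8 CPM in SASCs, 57.2, 57.0, and 62.4 CPM in PASCs, and 117, 113, and 127 CPM in EASCs. EASCs stood above all other samples, while SASCs and PASCs overlapped, so that the pattern of Gpc4 was unlike that of its neighbour Gpc3. EASCs were 2.04-fold above SASCs (log2 fold change 1.03, standard error 0.0625, adjusted p = 3.42e-14) and 2.02-fold above PASCs (1.02, standard error 0.0626, adjusted p = 3.54e-13). Both values lie close to the fold threshold: against SASCs Gpc4 was no longer a DEG without SASCs replicate 2 (0.99) or EASCs replicate 3 (0.98), and against PASCs without PASCs replicate 1 (0.99) or 2 (0.99) or EASCs replicate 3 (0.97). Without TMM it was a DEG in neither (0.62 and 0.93). Between PASCs and SASCs the log2 fold change was 0.01 (adjusted p = 0.879).

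Gpc1, the glypican for which a role as a partner of FGF2 is best known, was the member with its highest level in PASCs. It spans bases 99998275 to 100026818 of chromosome 9, plus strand (gene 58920). Gpc1 was at 183, 182, and 167 CPM in SASCs, 486, 468, and 450.1 CPM in PASCs, and 212, 231, and 244 CPM in EASCs. The 3 groups did not overlap, with PASCs highest and EASCs between them and SASCs. PASCs were 2.64-fold above SASCs (log2 fold change 1.40, standard error 0.0597, adjusted p = 1.22e-17) and EASCs 1.29-fold (0.37, standard error 0.0593, adjusted p = 3.99e-06), the latter under the fold threshold and -0.03 without TMM, where the median of all genes was -0.39. Set against PASCs, EASCs were lower (log2 fold change -1.03, standard error 0.0591, adjusted p = 7.71e-14), or -0.98 and no DEG without EASCs replicate 1. Ppp1r7 overlaps Gpc1 on the same strand with 806 to 1183 counts, and Ankmy1 on the other strand with 223 to 1007, against 3421 to 12715 of Gpc1, so its values could include reads of these genes.

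Since Gpc3 and Gpc4 are neighbours with unlike patterns, and Sdc1 and Sdc3 rose in both visceral depots, their promoters are shown as the 250 bases before the start of the gene, 5′ to 3′ on the strand of the gene. They were taken from RefSeq on GRCr8, which is not the build of the counts, and 6 of the 10 members had an entry. Capitals mark GC boxes, which have the letters GGGCGG, and CCAAT boxes, which have the letters of their name, each read on both strands and without overlap between motifs.
Gpc3, chrX:137157599-137157848, minus strand: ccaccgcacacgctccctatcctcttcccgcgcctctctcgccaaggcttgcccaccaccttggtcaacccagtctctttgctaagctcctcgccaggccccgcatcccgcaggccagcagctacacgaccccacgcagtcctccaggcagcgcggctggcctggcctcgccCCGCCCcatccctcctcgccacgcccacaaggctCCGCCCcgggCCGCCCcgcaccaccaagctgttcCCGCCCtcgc
Gpc4, chrX:136676058-136676307, minus strand: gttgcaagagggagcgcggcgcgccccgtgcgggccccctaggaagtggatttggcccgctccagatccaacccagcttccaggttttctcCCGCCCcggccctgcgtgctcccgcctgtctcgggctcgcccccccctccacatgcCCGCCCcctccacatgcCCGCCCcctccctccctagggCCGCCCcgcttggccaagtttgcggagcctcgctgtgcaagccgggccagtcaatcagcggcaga
Sdc1, chr6:37281791-37282040, plus strand: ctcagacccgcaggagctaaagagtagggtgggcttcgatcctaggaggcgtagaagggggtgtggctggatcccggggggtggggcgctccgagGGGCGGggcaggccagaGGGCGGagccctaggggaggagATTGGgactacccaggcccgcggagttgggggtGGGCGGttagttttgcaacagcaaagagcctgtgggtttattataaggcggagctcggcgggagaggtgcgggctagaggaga
Sdc3, chr5:148249542-148249791, plus strand: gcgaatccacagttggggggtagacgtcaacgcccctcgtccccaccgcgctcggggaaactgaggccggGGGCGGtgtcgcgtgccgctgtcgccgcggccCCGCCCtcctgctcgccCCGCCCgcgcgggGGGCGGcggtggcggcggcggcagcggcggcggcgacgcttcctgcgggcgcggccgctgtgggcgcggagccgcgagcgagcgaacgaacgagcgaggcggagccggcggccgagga

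GC boxes were found 4 times in the promoter of Gpc3, 4 times in that of Gpc4, 3 times in that of Sdc1, and 4 times in that of Sdc3, while 30.5% of 33469 promoters of the same length hold at least 1. A CCAAT box was found in Sdc1 (34% of all promoters hold one) and a TATA box, searched on both strands as TATAAA, in none of the 4 (12.9%). The G and C content was 71.6% in both Gpc3 and Gpc4, 65.2% in Sdc1, and 80.0% in Sdc3, against a median of 51.2% over all promoters. Neither the CArG box, the site of serum response factor (1.5% of all promoters), nor GGAATG, the core site of TEAD factors (12.1%), was found in the 4 windows. E boxes (CANNTG) were found 2 times in Gpc4, 1 time in Sdc3, and in neither Gpc3 nor Sdc1 (65.5% of all promoters hold one).

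Among the syndecans, Sdc1 and Sdc3 were DEGs in both EASCs and PASCs against SASCs, and Sdc2 and Sdc4 in neither. Sdc1, known from epithelia and plasma cells and as a partner of integrins in fibroblasts, spans bases 33885576 to 33908038 of chromosome 6, plus strand (gene 25216). Its samples were at 53.7, 61.3, and 50.3 CPM in SASCs, 199.99, 185, and 189 CPM in PASCs, and 296, 279.9, and 302 CPM in EASCs. The groups were separate, in the order SASCs, PASCs, EASCs. Sdc1 rose 5.30-fold in EASCs (log2 fold change 2.41, standard error 0.0651, adjusted p = 3.77e-22) and 3.47-fold in PASCs (1.79, standard error 0.0645, adjusted p = 2.48e-19). EASCs were 1.53-fold above PASCs (adjusted p = 4.80e-09). The sums of the mesothelial and of the smooth muscle and pericyte markers given above had the same order of groups, although single markers did not all follow it. Among mesothelial markers, Msln, Upk3b, and Bnc1 overlapped between PASCs and EASCs. Of the smooth muscle and pericyte markers, Cspg4 was higher in PASCs (66.6 CPM) than in EASCs (50.2 CPM), and Rgs5 was highest in SASCs (1.25 CPM). The part of these cells in the change of Sdc1 was not tested.

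Sdc3, a syndecan best known from nerve and developing muscle, spans bases 148923098 to 148956404 of chromosome 5, plus strand (gene 116673). It was at 17.7, 18.8, and 18.0 CPM in SASCs, 87.1, 84.2, and 89.7 CPM in PASCs, and 88.9, 99.0, and 109 CPM in EASCs. SASCs were below all other samples, and PASCs and EASCs overlapped. The log2 fold change against SASCs was 2.44 in EASCs (standard error 0.0727, adjusted p = 3.23e-21) and 2.26 in PASCs (standard error 0.0729, adjusted p = 2.24e-20), and EASCs were 1.14-fold above PASCs (adjusted p = 0.0290). The summed markers of smooth muscle and pericytes were also lowest in SASCs, with Myh11, Des, Lmod1, and Cspg4 higher in both other groups, whereas the pericyte marker Rgs5 was higher in SASCs (1.25 CPM on average) than in PASCs (0.0759) and EASCs (0.169). The part of these cells in the change of Sdc3 was not tested.

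Sdc2, the syndecan typical of mesenchymal cells, spans bases 71572731 to 71686139 of chromosome 7, plus strand (gene 25615). It was at 139, 144, and 142 CPM in SASCs, 146, 141, and 164 CPM in PASCs, and 216, 224, and 204 CPM in EASCs, so that EASCs were apart and SASCs and PASCs overlapped. EASCs were 1.52-fold above SASCs (log2 fold change 0.60, standard error 0.0580, adjusted p = 5.65e-10) and 1.43-fold above PASCs (adjusted p = 4.79e-08), both under the fold threshold. Without TMM the log2 fold change of EASCs against SASCs was 0.21 (adjusted p = 0.243 from edgeR), where the median of all genes was -0.39. Between PASCs and SASCs the log2 fold change was 0.08 (adjusted p = 0.206). Genes that overlap Sdc2, LOC102546302 and LOC102556409, had at most 46 counts.

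Sdc4, a component of focal adhesions, spans bases 160872503 to 160891190 of chromosome 3, minus strand (gene 24771). The samples were at 189.8, 190.1, and 167 CPM in SASCs, 125, 117, and 133 CPM in PASCs, and 159.7, 139.8, and 156 CPM in EASCs. SASCs were highest and PASCs lowest, without overlap of the groups. The differences from SASCs, with log2 fold changes of -0.55 in PASCs (standard error 0.0632, adjusted p = 1.71e-08) and -0.26 in EASCs (standard error 0.0628, adjusted p = 5.56e-04), stayed under the fold threshold. EASCs were 1.22-fold above PASCs (adjusted p = 9.48e-04).

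Per kilobase, the 4 syndecans together reached 132 ± 6.95 CPM in SASCs, 170.1 ± 7.27 in PASCs, and 234 ± 5.71 in EASCs (SD, n = 3 each). Sdc4 made up 55.6% ± 1.58 of this sum in SASCs, 29.5% ± 0.624 in PASCs, and 26.1% ± 1.24 in EASCs (SD, n = 3 each). The share of Sdc1 was 13.9% ± 0.802, 37.4% ± 1.62, and 41.6% ± 0.610, and that of Sdc3 was 2.86% ± 0.134, 10.6% ± 0.137, and 8.74% ± 0.867 in SASCs, PASCs, and EASCs (SD, n = 3 each). Sdc2 stayed between 21.7% and 29.4% in all samples. The main syndecan transcript was therefore that of Sdc4 in SASCs and that of Sdc1 in PASCs and EASCs, which does not depend on scaling between samples.

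The 3 glypicans together reached 93.4 ± 0.907, 156 ± 4.28, and 110.0 ± 6.69 CPM per kb in SASCs, PASCs, and EASCs (SD, n = 3 each). Without TMM the sums were 111, 148, and 98.8, so that the order of SASCs and EASCs depended on the scaling. Gpc1 made up 54.3% ± 2.24 of the glypican sum in SASCs, 85.8% ± 1.03 in PASCs, and 59.6% ± 1.34 in EASCs. The share of Gpc3 was 22.8% ± 0.961 in SASCs, 0.367% ± 0.0725 in PASCs, and 0.787% ± 0.112 in EASCs, and that of Gpc4 was 22.9% ± 1.45, 13.8% ± 1.05, and 39.6% ± 1.42 (SD, n = 3 each). In EASCs, Gpc4 thus held the place next to Gpc1 that Gpc3 and Gpc4 shared about equally in SASCs. These sums hold neither Gpc6 nor Gpc2 and Gpc5, of which Gpc5 had at most 3 counts in any sample. Gpc2, chosen after its values were seen, was at 1.78 ± 0.334 CPM in SASCs, 0.217 ± 0.0526 in PASCs, and 0.538 ± 0.0797 in EASCs (SD, n = 3 each), and was a downregulated DEG in both against SASCs.

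**Figure D3:**
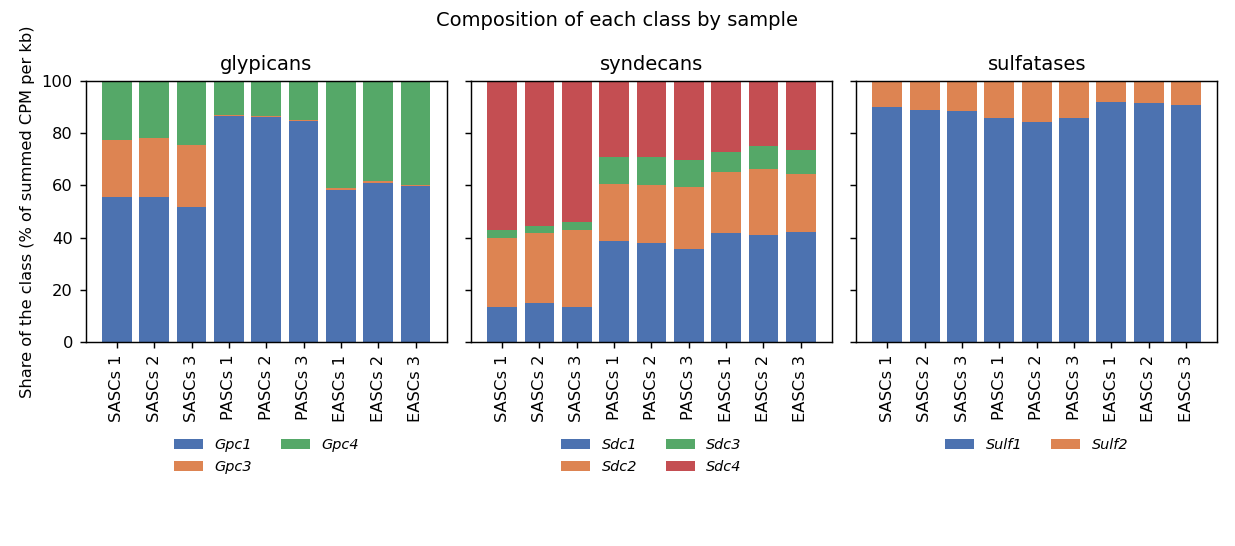
Share of each member in the summed CPM per kilobase of its class, in percent, as stacked bars for each of the 9 samples. Gpc3 holds 21.8% to 23.8% of the glypican sum in SASCs and is hardly visible in the other samples, and Sdc4 gives way to Sdc1 as the largest part of the syndecan sum in PASCs and EASCs.

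Sulf1 was the highest member in SASCs and fell in PASCs. It spans bases 5999520 to 6186901 of chromosome 5, minus strand (gene 171396). Sulf1 was at 711, 701, and 749.6 CPM in SASCs, 243, 240.2, and 256 CPM in PASCs, and 485, 484, and 485 CPM in EASCs. The groups were separate, with EASCs in the middle. The log2 fold change against SASCs was -1.55 in PASCs (standard error 0.0541, adjusted p = 1.34e-19) and -0.57 in EASCs (standard error 0.0528, adjusted p = 2.35e-10), the second under the fold threshold. EASCs were 1.97-fold above PASCs (log2 fold change 0.98, standard error 0.0536, adjusted p = 3.07e-14), a difference that reached the fold threshold without PASCs replicate 3 (1.00). Ube2w, listed over a span of chromosome 5 that contains Sulf1 on the other strand, had 364 to 1072 counts, and LOC103692274 had 69 to 285, against 4828 to 20456 of Sulf1.

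Sulf2, with the same enzymatic activity, spans bases 162791349 to 162872986 of chromosome 3, minus strand (gene 311642). It was at 56.6, 62.9, and 70.0 CPM in SASCs, 28.9, 32.4, and 30.8 CPM in PASCs, and 31.0, 32.1, and 34.8 CPM in EASCs. SASCs were above all other samples, and PASCs and EASCs overlapped. Sulf2 fell in PASCs (log2 fold change -1.04, standard error 0.0771, adjusted p = 2.64e-12), and its difference in EASCs, -0.95 (standard error 0.0767, adjusted p = 1.47e-11), stayed just under the fold threshold. The call in PASCs was lost without SASCs replicate 3 (-0.96) or PASCs replicate 1 (-0.99), and a call in EASCs was gained without SASCs replicate 1 (-1.03) and without TMM (-1.35). Between EASCs and PASCs the log2 fold change was 0.09 (adjusted p = 0.457).

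Per kilobase, both sulfatases together were at 113 ± 4.66 CPM in SASCs, 40.3 ± 1.15 in PASCs, and 73.8 ± 0.436 in EASCs (SD, n = 3 each), and without TMM at 133, 38.2, and 66.6, in the same order. Sulf1 made up 89.2% ± 0.791, 85.2% ± 0.876, and 91.4% ± 0.456 of the sum in SASCs, PASCs, and EASCs (SD, n = 3 each). The difference between the groups in sulfatase transcripts was therefore mainly one of Sulf1.

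To place the members in their pathway, 80 other genes in 6 lists were examined, of which 65 were tested. In EASCs against SASCs, 6 were upregulated and 19 downregulated DEGs, and the median of the 65 was -0.37 (log2 fold change). In PASCs there were 4 upregulated and 24 downregulated DEGs (median -0.51), and in EASCs against PASCs 8 and 1 (median 0.12). The last were Spock2, Hs3st1, Gdpd2, Fgf2, Fgf18, Hgf, Ptn, and Mdk, higher in EASCs, and Hs3st5, lower in EASCs. Against these 9 DEGs between EASCs and PASCs, limma on log2(CPM + 1) called 3 genes of the lists and the fit of the 2 groups alone 7, and Gdpd2 (0.309 against 0.0831 CPM) and Ptn (0.442 against 0.0426 CPM) had means below the level of 3 counts in PASCs. Among all genes tested, 13.6%, 12.0%, and 5.19% were upregulated and 14.2%, 14.9%, and 2.20% downregulated DEGs in these comparisons, which is the background for the counts of each list.

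Of 7 tested genes for other proteoglycan cores, 3 were downregulated DEGs in EASCs and 5 in PASCs, and none was upregulated. Hspg2 was on this list but matched no gene by symbol, so these counts do not cover it. Tgfbr3, or betaglycan, a coreceptor of TGF-beta, was at 594 ± 29.5 CPM in SASCs, 117 ± 8.06 in PASCs, and 85.7 ± 4.51 in EASCs (SD, n = 3 each), with log2 fold changes of -2.35 in PASCs (adjusted p = 2.71e-22) and -2.79 in EASCs (adjusted p = 6.98e-24). Col18a1, the basement membrane collagen that carries heparan sulfate, fell from 194 ± 4.0 to 21.6 ± 0.831 CPM in PASCs and 42.4 ± 1.22 in EASCs (SD, n = 3 each). Agrn, the gene of agrin, changed by -1.12 in PASCs (adjusted p = 9.74e-12), and its log2 fold change in EASCs was -0.54. The remaining DEGs of the list were Gpc2 in both and Spock2 in PASCs.

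Few DEGs were found among the enzymes that build the chain. Of 11 tested genes of linker and chain synthesis, Ext1 alone was a DEG in EASCs and none was in PASCs. Ext1, a subunit of the heparan sulfate polymerase, was at 61.8 ± 1.59 CPM in SASCs, 87.8 ± 2.05 in PASCs, and 142 ± 1.94 in EASCs (SD, n = 3 each). On the log2 scale it changed by 1.20 in EASCs (standard error 0.0543, adjusted p = 4.83e-17) and differed by 0.51 in PASCs (adjusted p = 4.88e-09). Its partner Ext2, chosen after its values were seen, had log2 fold changes of -0.37 and -0.55.

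Among 11 tested genes of chain modification, 3 were DEGs, all downregulated in both EASCs and PASCs and all 3-O-sulfotransferases, which add a rare sulfate group late in synthesis. Hs3st5 was at 6.54 ± 0.495 CPM in SASCs, 1.73 ± 0.680 in PASCs, and 0.638 ± 0.117 in EASCs (SD, n = 3 each), and the test gave -1.94 for PASCs (adjusted p = 4.68e-08) and -3.35 for EASCs (adjusted p = 2.08e-11) on the log2 scale. Hs3st3b1 was at 4.17, 7.34, and 4.83 CPM for SASCs, 0.344, 0.0748, and 0.635 CPM for PASCs, and 0.335, 0.0405, and 0 CPM for EASCs, so that 1 sample of PASCs and 2 of EASCs lay below the level of 3 counts. The remaining one was Hs3st1.

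Of 8 tested genes of chain degradation, 3 were downregulated DEGs in EASCs and 4 in PASCs, and none was upregulated. The lysosomal enzymes Idua (-1.33 in EASCs, -1.69 in PASCs), Naglu (-1.19 and -1.20), and Arsg (-1.02 and -1.32) were DEGs in both, with log2 fold changes against SASCs. Hpse, the heparanase that cuts chains outside and inside the cell, fell from 35.2 ± 2.80 CPM in SASCs to 12.4 ± 1.69 in PASCs (SD, n = 3 each), or by -1.51 on the log2 scale (adjusted p = 7.76e-14), and differed by -0.79 in EASCs (adjusted p = 1.52e-08).

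In the list of shedding enzymes and partners of the core proteins, 3 of 13 tested genes were downregulated DEGs in each of EASCs and PASCs and none was upregulated. Both proteases among them are known to release syndecans from the cell surface. Mmp14, a membrane matrix metalloproteinase, was at 1952 ± 82.2 CPM in SASCs, 312 ± 14.7 in PASCs, and 501 ± 16.3 in EASCs (SD, n = 3 each), with log2 fold changes of -2.65 in PASCs (adjusted p = 9.44e-24) and -1.96 in EASCs (adjusted p = 3.06e-21). Adam17, a membrane sheddase, changed by -1.41 in PASCs (adjusted p = 1.04e-17) and -1.56 in EASCs (adjusted p = 1.15e-18). Gdpd2, of a family of phosphodiesterases that cut lipid anchors, was at 4.54 to 5.77 CPM in SASCs and at most 0.335 CPM in the other samples.

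The ligands that bind heparan sulfate changed in both directions. Of 15 tested, 5 were upregulated and 7 downregulated DEGs in EASCs, and 4 and 9 in PASCs, where 13.6% and 14.2% of all genes tested were such DEGs in EASCs and 12.0% and 14.9% in PASCs. Ptn, the gene of pleiotrophin, a ligand of syndecans, was at 54.1, 48.4, and 46.3 CPM for SASCs, 0, 0.0748, and 0.0530 CPM for PASCs, and 0.586, 0.203, and 0.537 CPM for EASCs. Fgf10, a growth factor of fat precursors, fell from 49.8 ± 1.08 CPM in SASCs to 7.69 ± 0.377 in PASCs and 11.3 ± 0.412 in EASCs (SD, n = 3 each), and Mdk, or midkine, from 6.85 ± 0.570 to 1.22 ± 0.471 in PASCs, with 3.74 ± 0.634 CPM in EASCs (log2 fold change -0.87, no DEG). Fgf18 was at 0.454 ± 0.161 CPM in SASCs, 1.63 ± 0.0952 in PASCs, and 8.44 ± 0.558 in EASCs (SD, n = 3 each), and its log2 fold change was 4.24 in EASCs (adjusted p = 1.10e-14), 1.87 in PASCs (adjusted p = 2.94e-06), and 2.37 between EASCs and PASCs (adjusted p = 2.10e-10).

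**Figure D4:**
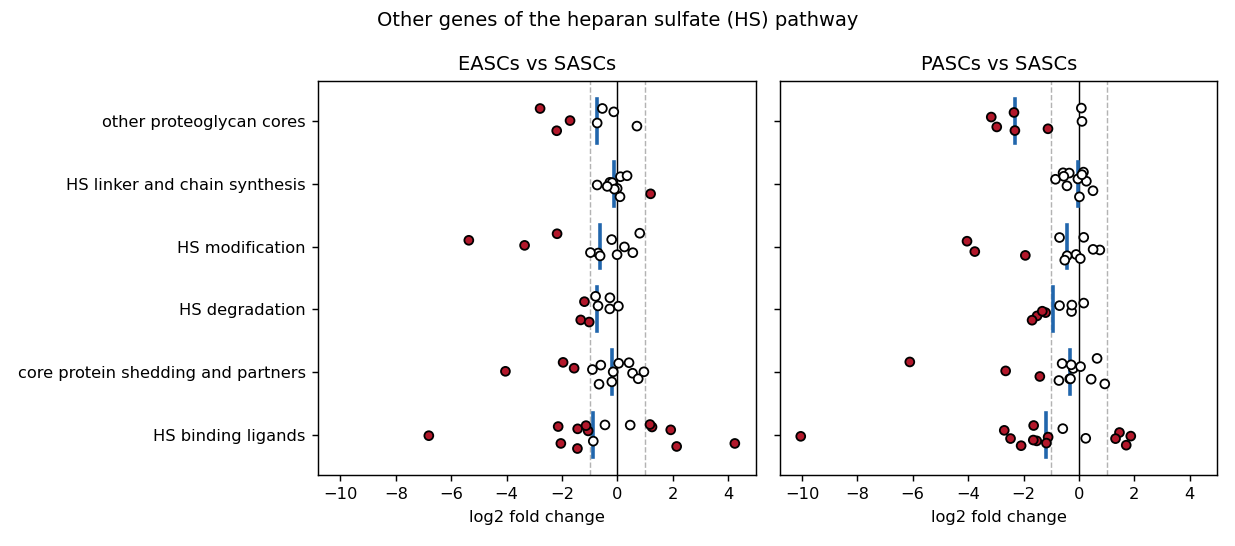
Log2 fold change against SASCs of the 65 tested genes of the 6 lists in EASCs (left) and PASCs (right), 1 point per gene, with DEGs filled, the median of each list as a blue bar, and dashed lines at a fold change of 2. Genes of linker and chain synthesis lie within the dashed lines except Ext1 in EASCs, the point farthest left is Ptn in PASCs, whose fitted value rests on at most 2 counts per sample, and DEGs among other cores, modification, degradation, and shedding lie to the left.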

How the data were processed

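Reads were paired, of 150 bp, and the authors trimmed adaptors with cutadapt 3.1 and low-quality bases with FastX-Toolkit 0.0.13, and aligned them with TopHat 2.1.1 to rn6. The submitters' processing notes list TopHat2 and rn5. The deposited values are counts per gene and sample, not normalized. Neither the counting tool nor its treatment of strand and multiply mapped reads is given in the sources used here, so reads of overlapping genes could be shared.

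Counts were filtered with filterByExpr, scaled by TMM, and tested with edgeR 4.0.16 in R 4.3.3 (quasi-likelihood, all 9 samples, no block), with Benjamini-Hochberg adjustment over 14770 genes. The standard error is the log2 fold change divided by the square root of F. CPM per kb uses the gene length listed in the table. On simulated counts for EASCs against SASCs (14448 genes), 100 of 100 genes with a 3-fold change were recovered, and 3 of 14248 unchanged genes were called. These counts were drawn from the fitted model itself, with few genes changed, whereas 4105 genes were DEGs in the data. Only changes of 3-fold and 6-fold were given, so the simulation cannot speak to calls near the fold threshold of 2. Members and lists were chosen with earlier results of these data known. Of each list, at most 4 DEGs with the largest change at 5 CPM or more are named, with exceptions stated. Replicates differed by more than counting noise (chi-square per degree of freedom of 6.15 to 23.4 between SASCs, 21.6 to 51.3 between PASCs, and 66.9 to 281 between EASCs). These chi-squares used counts scaled only by their totals, with rRNA genes kept, so unlike rRNA shares within a group enter them. After TMM, edgeR's common biological coefficient of variation, the spread beyond counting noise, was 0.0685. The alternatives were DESeq2 1.42.0, no TMM, no filter, fits of 2 groups, the replicate block, removal of 7 rRNA genes, limma 3.58.1 on log2(CPM + 1), and leaving out each sample in turn. One list of cell type markers is not reported here.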

Additional observations from a re-analysis of the deposited data

Results flagged for a closer look

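Of the members, 2 differed between the visceral depots beyond the fold threshold, by the test of EASCs against PASCs itself. Gpc1 was lower in EASCs (log2 fold change -1.03, adjusted p = 7.71e-14 from edgeR), and its level in SASCs was below both, though EASCs against SASCs was -0.029 without TMM, and Gpc4 was higher in EASCs (1.02, adjusted p = 3.54e-13). All 3 samples of EASCs lay on one side of all 3 samples of PASCs for each gene. Both values are close to the threshold, and their ranges with each replicate left out are -1.075 to -0.979 and 0.97 to 1.06. Without TMM, Gpc4 was at 0.93 and no DEG.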

How the results depend on the processing

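DESeq2, no filter on low counts, fits of only 2 groups, the replicate block, removal of rRNA genes, and limma on log2(CPM + 1) kept the call and the direction of every member in every comparison, except that Gpc4 in PASCs against SASCs was -0.002 with DESeq2. Samples of the same number had deviations from their group means that correlated between -0.0252 and 0.0590, and 4 of 9 samples correlated best with their own number, so the numbers were not taken as pairs. The replicate block gave 4061, 3944, and 1067 DEGs in EASCs against SASCs, PASCs against SASCs, and EASCs against PASCs, where the fit without it gave 4105, 3979, and 1091, and left 4, 6, and 2 members and 25, 28, and 9 list genes as DEGs. limma lowered the DEGs to 2648, 2542, and 506, and the list genes of the third comparison to 3. Without TMM the median of all genes moved to -0.39, -0.33, and -0.08, with 4775, 4431, and 1010 DEGs and 32, 31, and 9 list genes among them. There Gpc1 in EASCs against SASCs turned to -0.029 (0.36 above that median), Gpc4 and Sdc2 in PASCs against SASCs to -0.31 and -0.23 (0.03 and 0.10 above it), Gpc4 was no DEG in EASCs (0.62 and 0.93), and 1 member was left as DEG in EASCs against PASCs. Gpc4 in PASCs against SASCs ranged from -0.03 to 0.053 with each replicate left out, and was below 0 without SASCs replicate 2 (-0.025) or PASCs replicate 3. With each replicate left out in turn, DEGs numbered 4115 to 4160, 3957 to 4116, and 1022 to 1065, members among them 3 to 5, 5 to 6, and 1 to 3, and list genes 25 to 29, 28 to 30, and 7 to 10. The summed levels in SASCs, PASCs, and EASCs were 111, 148, and 98.8 CPM per kb for glypicans, 156, 161, and 210.2 for syndecans, and 133, 38.2, and 66.6 for sulfatases without TMM, and 122, 205, and 145, 172, 223, and 307, and 148, 52.8, and 97.1 with rRNA genes removed.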
